A study of Homo sapiens with 16 samples.

Results

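The 38 genes described here encode the machinery that ends RNA polymerase II transcripts: 20 cleavage and polyadenylation factors, 4 termination factors and 14 subunits of the Integrator complex. They were chosen as a fixed list of gene symbols, without a rule on measured values, beside 18080 genes in the count table as a whole. CPSF1 and INTS3 had no matched row in that table, so their expression was not analysed here. PABPN1 was listed at 0 in every library. Its interval is overlapped on the same strand by the row of the readthrough gene BCL2L2-PABPN1, which held 2 to 688 counts per library, so the 0 is not read as an absence of PABPN1 RNA. The remaining 35 genes passed the filter on low counts and were tested: 18 cleavage and polyadenylation factors, 4 termination factors and 13 Integrator subunits.

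The samples are wild-type HL60 cells, an established human line of acute promyelocytic leukemia, exposed for 5 h either to 50 nM SY-351, which inhibits the kinase CDK7, or to its solvent DMSO as control. Each group has 4 numbered replicates, and RNA was enriched for poly(A) tails before library preparation. The study examined the part of CDK7 in transcription, including splicing and termination. All libraries come from this 1 cell line, the labels do not say that replicates were separate cultures, and p-values therefore measure the spread between these libraries, which may be technical.

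Most human mRNAs get their 3' end when the cleavage and polyadenylation complex recognises a poly(A) signal in the nascent RNA, cuts it and adds a tail. CPSF reads the signal and holds the nuclease, CstF binds downstream of the cut, cleavage factor I binds upstream of it, and cleavage factor II links the complex to the C-terminal domain of the polymerase, which CDK7 is among the kinases known to phosphorylate. After the cut, the exonuclease XRN2 degrades the RNA still attached to the polymerase and helps to release it. Integrator is a separate nuclease complex that trims small nuclear RNAs and cuts short transcripts of polymerases paused near promoters, and it carries the phosphatase PP2A.

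The DMSO libraries held 103676474 to 124241681 counts and the SY-351 libraries 43266151 to 77891656, and 3 counts were worth 0.0241 to 0.0693 CPM at these totals, without further scaling. CPM is the count relative to the size of its library in the standard sequencing unit, and the levels below use library sizes scaled by TMM, edgeR's default. The TMM factors were 0.661, 0.657, 1.606 and 1.208 for DMSO 1 to 4 and 1.017 to 1.07 with SY-351. Differences in level among the DMSO libraries therefore depend on this scaling. DMSO 1 and 2 stood apart from all other libraries: over all genes tested, log CPM correlated at 0.991 between DMSO 1 and 2 and at 0.992 between DMSO 3 and 4, but at 0.756 to 0.785 between the pairs. DMSO 3 and 4 correlated at 0.938 to 0.955 with the SY-351 libraries. The tests were therefore run on all 8 libraries and again with SY-351 set against DMSO 3 and 4 only, and the second comparison has only 2 controls. edgeR takes part of the spread from all genes. A very small p against DMSO 3 and 4 therefore does not rest on a gene's own libraries alone. A fit that also leaves out DMSO 3 or DMSO 4 has 1 control, and its spread comes from the SY-351 libraries alone, the lone control being assumed to vary like them. Of 7 fixed myeloid markers 4 had a row, and their summed level was 12600 to 50800 CPM in DMSO and 29300 to 33600 CPM with SY-351. MPO made up most of that sum, and the others did not move together: SPI1 was at 2620 and 2690 CPM in DMSO 1 and 2 against 272 to 345 CPM in all other libraries, CD33 at 5.64 and 3.1 against 62.4 to 86.4 CPM, and CTSG at 19.4 to 280 CPM in DMSO and 586 to 670 CPM with SY-351. The summed markers of T cells (0.177 to 2.08 CPM in DMSO, 2.33 to 3.51 with SY-351), B cells (0.499 to 1.05 and 1.06 to 1.85), epithelium (0.191 to 0.412 and 0.329 to 1.69) and red cells (0.0735 to 0.406 and 0.126 to 0.338) were low. The endothelial pair PECAM1 and VWF summed to 1.5 to 13.9 CPM in DMSO and 22 to 24.8 CPM with SY-351, and its part in the results was not tested. PECAM1 made up 20.7 to 23.5 CPM of it with SY-351, while in DMSO 1 and 2 PECAM1 was at 0.874 and 0.426 CPM and VWF at 0.748 and 1.07 CPM.

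The levels of 3' end factors moved in both directions, and most called changes were falls. In all 8 libraries 4 of the 35 tested genes fell with SY-351 and 0 rose at an adjusted p below 0.05 (edgeR quasi-likelihood test, Benjamini-Hochberg over all genes tested): the termination factors SCAF4 and SCAF8 and the Integrator subunits INTS5 and INTS14. That is 11.4% of the members, beside 13.6% of all 15472 genes tested that fell and 2.91% that rose. The share of falls is near the background. At an unadjusted p below 0.05 there were 13 of the 35 members, beside 4927 of all 15472 genes tested. Against DMSO 3 and 4 only, 20 of 35 members were lower (57.1%) and 4 higher (11.4%), beside 26.4% lower and 21.9% higher of all 15811 genes tested. The median log2 fold of the members was -0.63 with 8 libraries and -0.58 against DMSO 3 and 4, where the medians over all genes were 0.00 and 0.01. When only DMSO 1 and 2 served as controls, 16 members were lower and 17 higher, beside 38.4% and 40.8% of all genes, so the excess of falls was not seen against those libraries. Levels are relative to the rest of each library, and in bulk RNA fewer cells of a kind and less RNA per cell cannot be told apart. Scaling by total counts, a choice made after seeing the data, gave all genes a median log2 fold of -0.45 against DMSO 3 and 4. Then 28 members were lower (80%) and 4 higher (11.4%), beside 43.3% lower and 13.1% higher of all genes tested.

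The roles differed in their counts, and that difference itself was not tested. In 8 libraries 0 of 18 cleavage and polyadenylation factors passed, 2 of 4 termination factors fell and 2 of 13 Integrator subunits fell. The median log2 folds were -0.54, -1.18 and -0.22. Of the 18 cleavage and polyadenylation factors 7 had an unadjusted p below 0.05. DESeq2 called 6 of the 18 lower and 2 higher, beside 24.6% lower and 8.9% higher of all genes tested. Against DMSO 3 and 4, 11 cleavage and polyadenylation factors were lower and 3 higher, 2 termination factors were lower, and 7 Integrator subunits were lower and 1 higher. The medians were then -0.57, -0.38 and -0.81. In 8 members every treated library was under every control, CPSF4, PCF11, WDR33, SCAF4, SCAF8, INTS5, INTS8 and INTS14, beside 18.2% of all genes. Every treated library was above every control in 3 members, CPSF6, PAPOLA and INTS4, beside 15.5% of all genes. These separations are of TMM-scaled levels. Relative to unscaled library totals the groups overlapped in CPSF4, PCF11, INTS8 and INTS4.

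**Figure D1:**
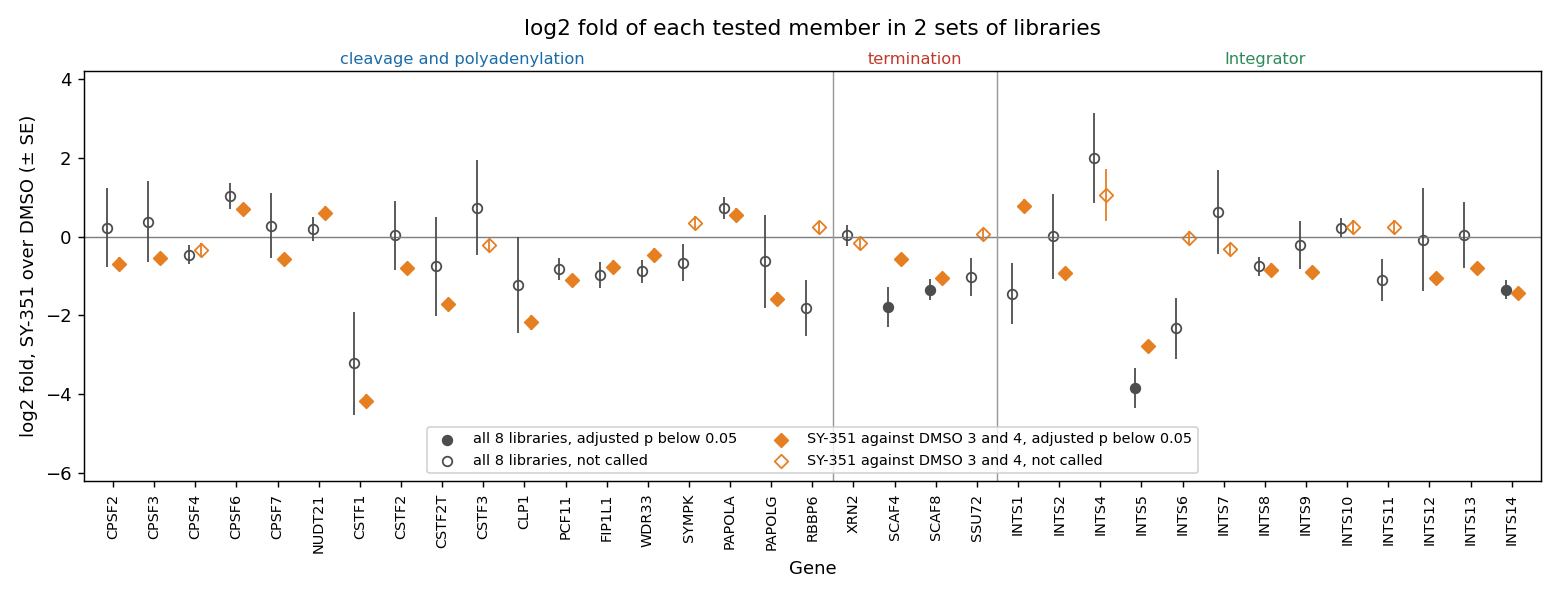
log2 fold of SY-351 over DMSO, with its standard error, for each of the 35 tested genes, from all 8 libraries (circles) and against DMSO 3 and 4 only (diamonds), with filled symbols where the edgeR adjusted p was below 0.05. Error bars are wide with 8 libraries, where 4 genes were called, and narrow against DMSO 3 and 4, where 24 were called.

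The stretches before the start of 4 genes are printed because their levels stood out: SCAF8 and INTS14, which fell in both comparisons, CSTF1, the furthest below DMSO 3 and 4, and CPSF6, which lay above every control. Each is the 250 bases before the transcript start from RefSeq on GRCh38.p14, written 5' to 3' on the gene's strand, with capitals where 1 of 7 searched motifs lies on either strand. The CSTF1 stretch is set by a RefSeq start slightly downstream of the counted interval's, so its last bases lie inside that interval.
SCAF8, chr6:154733128-154733377, plus strand: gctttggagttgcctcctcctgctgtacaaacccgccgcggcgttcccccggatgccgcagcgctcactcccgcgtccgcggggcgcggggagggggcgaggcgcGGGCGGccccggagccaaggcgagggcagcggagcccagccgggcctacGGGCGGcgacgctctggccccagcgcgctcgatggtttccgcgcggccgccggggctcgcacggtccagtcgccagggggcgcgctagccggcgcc
INTS14, chr15:65611132-65611381, minus strand: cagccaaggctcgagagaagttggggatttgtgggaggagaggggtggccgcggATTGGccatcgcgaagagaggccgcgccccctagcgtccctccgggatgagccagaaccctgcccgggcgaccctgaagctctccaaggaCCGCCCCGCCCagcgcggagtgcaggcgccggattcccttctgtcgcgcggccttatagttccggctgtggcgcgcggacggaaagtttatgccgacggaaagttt
CSTF1, chr20:56392129-56392378, plus strand: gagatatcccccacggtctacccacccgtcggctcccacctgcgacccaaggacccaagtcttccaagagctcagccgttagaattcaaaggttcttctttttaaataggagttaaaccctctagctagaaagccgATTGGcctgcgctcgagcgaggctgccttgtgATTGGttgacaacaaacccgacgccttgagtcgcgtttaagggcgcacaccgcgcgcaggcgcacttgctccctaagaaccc
CPSF6, chr12:69239319-69239568, plus strand: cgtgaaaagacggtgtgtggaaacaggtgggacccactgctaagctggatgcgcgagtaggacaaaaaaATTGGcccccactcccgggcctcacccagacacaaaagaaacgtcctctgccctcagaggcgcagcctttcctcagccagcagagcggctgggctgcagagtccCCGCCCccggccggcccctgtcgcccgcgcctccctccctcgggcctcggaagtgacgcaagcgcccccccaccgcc
The capitals mark 2 GC boxes (GGGCGG or its reverse complement) in SCAF8, 2 overlapping GC boxes and 1 CCAAT box in INTS14, 2 CCAAT boxes in CSTF1, and 1 of each in CPSF6. In the 300-base windows (250 before and 50 after the start) of 32 members found in the RefSeq table, 0 held the TATA box (TATAAA), beside 12% of all 27305 windows. A GC box was in 23 of 32 (44.6% of all), CCAAT in 16 (35.7%), the ETS motif CCGGAAG in 10 (10.7%), the cAMP response element TGACGTCA in 4 (1.98%), the YY1 motif in 2 (1.28%) and the NRF1 motif in 1 (1.36%). The ETS match of CSTF1 runs past the end of its printed stretch, so it is not in capitals there. Both strands were searched and matches may overlap. The median GC content was 63.7% in the members and 58.3% in all windows. A match describes letters only, and no match says only that these letters are not in the window.

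Among the termination factors, SCAF8 and SCAF4 fell. These related proteins bind the C-terminal domain of the polymerase and keep it from using early poly(A) sites. SCAF8 (chromosome 6, 154733377 to 154834244, GRCh38, the whole transcript interval with introns) measured 89.9, 109, 60.5 and 80.4 CPM in DMSO 1 to 4 and 31.3, 34.6, 35.6 and 31.9 CPM in SY-351 1 to 4. The groups did not overlap. The log2 fold came to -1.35 ± 0.26 (SE, adjusted p = 0.0129 by edgeR), and -1.06 ± 0.16 (SE, adjusted p = 7.51e-11 by edgeR) against DMSO 3 and 4, a level 2.08-fold lower. The call with 8 libraries ended when any SY-351 library was left out (edgeR adjusted p = 0.0626 to 0.0701).

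SCAF4 (chromosome 21, 31670999 to 31732118) measured 354, 409, 91.9 and 122 CPM in DMSO 1 to 4 and 69.1, 71.8, 72.5 and 68.6 CPM with SY-351. The groups did not overlap, but DMSO 1 and 2 were 3.56-fold above DMSO 3 and 4. The log2 fold was -1.79 ± 0.51 (SE, adjusted p = 0.0475 by edgeR) with 8 libraries and -0.58 ± 0.16 (SE, adjusted p = 0.000666 by edgeR) against DMSO 3 and 4. The call with 8 libraries ended without DMSO 1, without DMSO 2 and without any single SY-351 library (edgeR adjusted p = 0.105 to 0.142). SCAF4 also had the largest splicing difference of the genes described here, given below.

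The other termination factors did not pass in either comparison. XRN2, the nuclear exonuclease, ranged from 61.4 to 104 CPM in the controls and from 75.8 to 82.3 CPM in the treated libraries, with log2 folds of 0.03 ± 0.26 and -0.17 ± 0.16 (SE) in the 8 libraries and against DMSO 3 and 4. SSU72, a phosphatase of the C-terminal domain, measured 359, 437, 102 and 147 CPM in DMSO 1 to 4 and 139, 127, 126 and 125 CPM with SY-351. Its fold on the log2 scale was -1.02 ± 0.48 (SE) with 8 libraries and 0.07 ± 0.16 (SE) against DMSO 3 and 4, and -0.34 under total count scaling.

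Of the Integrator subunits, INTS5 had the lowest log2 fold with 8 libraries. On the TMM scale INTS14 had the most even control levels of the called genes. INTS5 is a scaffold subunit of the complex, and its gene (chromosome 11, 62646847 to 62653302) is short, with 2 exons in the counted transcript. It measured 116, 114, 32 and 43 CPM in DMSO 1 to 4 and 5.5, 6.44, 5.37 and 4.01 CPM with SY-351, so every SY-351 library lay far below every control. The log2 fold was -3.84 ± 0.51 (SE, adjusted p = 0.0049 by edgeR) with 8 libraries and -2.78 ± 0.16 (SE, adjusted p = 2.03e-66 by edgeR) against DMSO 3 and 4, where the level was 6.89-fold lower. It was called in all 8 fits that left out 1 library (edgeR adjusted p = 0.00271 to 0.0355).

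INTS14 (chromosome 15, 65578779 to 65611131) belongs to a module with INTS10 and INTS13. It measured 34.2, 33.7, 33.3 and 45.3 CPM in DMSO 1 to 4 and 13.4, 15.5, 14.8 and 13.8 CPM with SY-351. The groups were separate and DMSO 1 and 2 lay with DMSO 3 and 4, at 1.16-fold below them on average. The log2 fold was -1.35 ± 0.24 (SE, adjusted p = 0.00965 by edgeR) with 8 libraries, -1.43 ± 0.15 (SE, adjusted p = 1.19e-19 by edgeR) against DMSO 3 and 4 and -1.38 against DMSO 1 and 2. The 8-library call ended without any single SY-351 library (edgeR adjusted p = 0.0522 to 0.0618). INTS13, which partners INTS14, measured 6.69, 4.89, 61.9 and 86.3 CPM in DMSO 1 to 4 and 39.7 to 42.5 CPM with SY-351. The treated libraries lay between the pairs of controls, with a log2 fold of -0.81 ± 0.16 (SE, adjusted p = 8.42e-07 by edgeR) against DMSO 3 and 4 and 2.70 against DMSO 1 and 2. INTS10 did not pass in either comparison, with log2 folds of 0.23 ± 0.23 and 0.25 ± 0.16 (SE).

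The catalytic core of Integrator showed no common direction. INTS11, the endonuclease, measured 496, 421, 96.5 and 132 CPM in DMSO 1 to 4 and 130 to 139 CPM with SY-351, and did not pass in either comparison (log2 folds of -1.10 ± 0.54 and 0.25 ± 0.16, SE). INTS9, its partner in the nuclease module, measured 7.84, 3.29, 22 and 29.5 CPM in DMSO 1 to 4 and 12.3 to 14.1 CPM with SY-351, with a log2 fold of -0.22 ± 0.61 (SE) in 8 libraries and -0.91 ± 0.16 (SE, adjusted p = 2.25e-08 by edgeR) against DMSO 3 and 4. INTS4, the scaffold of that module, measured 1.4, 0.793, 29.9 and 36.1 CPM in DMSO 1 to 4 and 43.4, 46, 47.6 and 134 CPM with SY-351. SY-351 replicate 4 stood apart, and neither comparison passed (log2 folds of 1.99 ± 1.15 and 1.06 ± 0.66, SE). The groups did not overlap on the TMM scale but did relative to unscaled library totals. Without SY-351 replicate 4 the log2 fold against DMSO 3 and 4 was 0.47 (edgeR adjusted p = 0.034). On the other strand the INTS4 interval overlaps AAMDC, and those of CPSF4, FIP1L1, WDR33, INTS8 and INTS11 also overlap a gene on the other strand, whose reads may not be told apart.

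INTS1, the largest scaffold subunit, went opposite ways with the choice of controls. It measured 2020, 2110, 217 and 282 CPM in DMSO 1 to 4 and 431, 432, 441 and 390 CPM with SY-351, so that the treated libraries lay between the pairs of controls. The log2 fold was -1.45 ± 0.77 (SE, adjusted p = 0.236 by edgeR) with 8 libraries and 0.78 ± 0.17 (SE, adjusted p = 1.05e-05 by edgeR) against DMSO 3 and 4, and -2.43 against DMSO 1 and 2. INTS2 measured 1.04, 1.25, 33 and 48.2 CPM in DMSO 1 to 4 and 18.5, 22.2, 22.2 and 21 CPM with SY-351, again between the pairs. SY-351 over DMSO gave a log2 fold of 0.01 ± 1.08 (SE) with 8 libraries and -0.93 ± 0.15 (SE, adjusted p = 6.79e-09 by edgeR) against DMSO 3 and 4. INTS12, a subunit with a PHD finger, measured 0.339, 0.118, 19.9 and 25.4 CPM in DMSO 1 to 4 and 11, 10.1, 11 and 11.2 CPM with SY-351. The fitted log2 fold was -0.08 ± 1.31 (SE) with 8 libraries and -1.05 ± 0.16 (SE, adjusted p = 4.38e-10 by edgeR) against DMSO 3 and 4.

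INTS8, which holds PP2A in the complex, ranged from 48.1 to 73.1 CPM in DMSO and from 32.5 to 37.7 CPM with SY-351. The groups did not overlap on the TMM scale but did relative to unscaled library totals. The log2 fold of INTS8 was -0.76 ± 0.24 (SE, adjusted p = 0.0614 by edgeR) with 8 libraries and -0.84 ± 0.16 (SE, adjusted p = 3.84e-07 by edgeR) against DMSO 3 and 4. INTS6, also of the phosphatase module, had log2 folds of -2.33 ± 0.78 and -0.03 ± 0.16 (SE) in the 8 libraries and against DMSO 3 and 4, INTS7 had 0.62 ± 1.06 and -0.32 ± 0.16 (SE), and neither passed. For INTS6 the counted interval covers 14% of the gene, so its value does not stand for the full transcript.

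**Figure D2:**
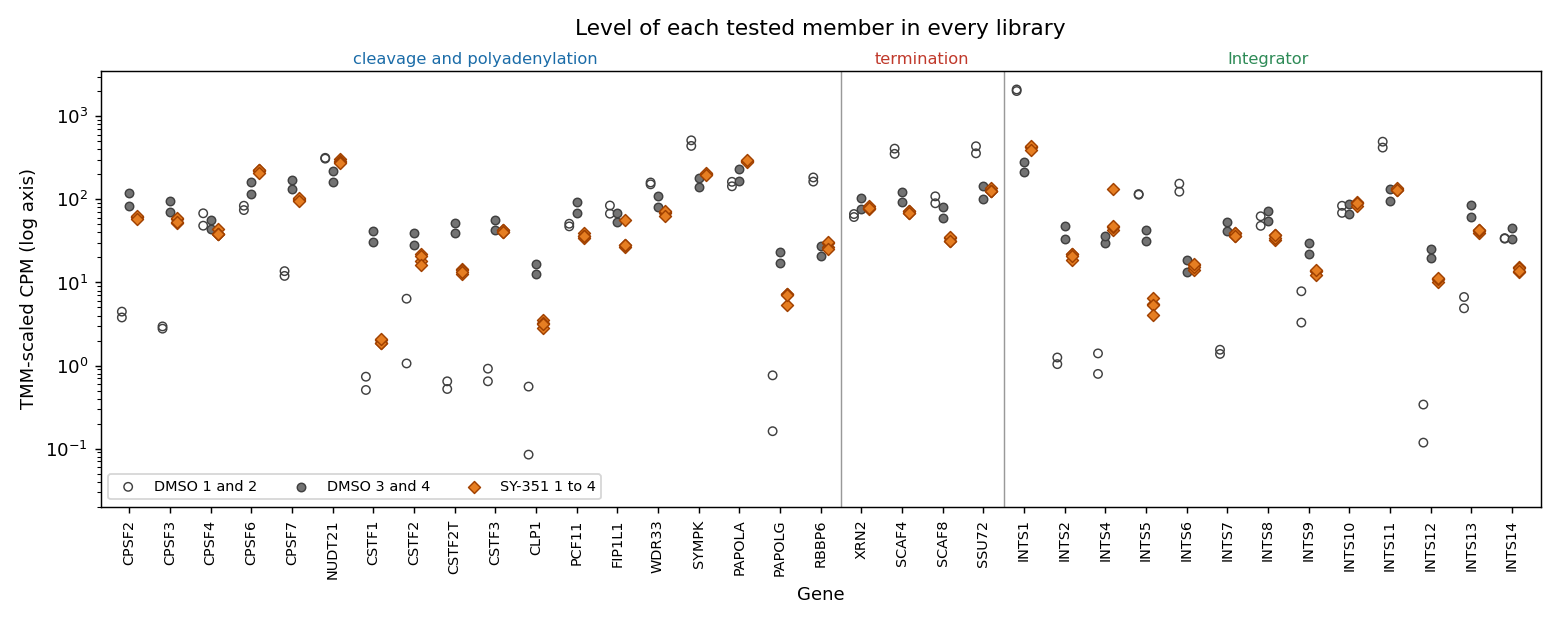
TMM-scaled CPM on a log axis of the 35 tested genes in each of the 8 libraries, with DMSO 1 and 2 open, DMSO 3 and 4 filled and SY-351 as diamonds. For INTS5, INTS14 and SCAF8 all controls lie above the treated libraries, while for INTS1 (390 to 441 CPM with SY-351) and INTS2 (18.5 to 22.2 CPM) the treated libraries lie between the pairs of controls.

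The CstF complex, which binds the GU-rich element downstream of the cut, held the lowest fold against DMSO 3 and 4. CSTF1, its WD40-repeat subunit (chromosome 20, 56392370 to 56404526), measured 0.508, 0.734, 30.8 and 41.3 CPM in DMSO 1 to 4 and 1.89, 2.03, 1.87 and 2.1 CPM with SY-351. DMSO 1 and 2 therefore lay below and DMSO 3 and 4 far above the treated libraries. The log2 fold was -3.22 ± 1.30 (SE, adjusted p = 0.131 by edgeR) with 8 libraries, -4.17 ± 0.17 (SE, adjusted p = 2.67e-125 by edgeR) against DMSO 3 and 4, an 18-fold lower level, and 1.52 against DMSO 1 and 2. The p against DMSO 3 and 4 changed with the scaling, to 2.76e-10 (edgeR adjusted p) under total count scaling. Only 0.0443% of all genes tested against DMSO 3 and 4 had a lower log2 fold than CSTF1. DMSO 1 and 2 held 36 and 50 counts of CSTF1, and DMSO 3 and 4 held 6151 and 5824.

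CSTF2T, an intronless paralog of the RNA-binding subunit CSTF2, lies inside PRKG1 on the other strand (chromosome 10, 51695485 to 51699595). It measured 0.522, 0.646, 39.1 and 52.1 CPM in DMSO 1 to 4 and 12.7, 14.4, 14.2 and 13.2 CPM with SY-351. The corresponding log2 fold was -0.76 ± 1.25 (SE, adjusted p = 0.7 by edgeR) with 8 libraries and -1.72 ± 0.15 (SE, adjusted p = 4.34e-28 by edgeR) against DMSO 3 and 4. Reads of near-identical stretches of CSTF2 and CSTF2T may be split between them by the counting. CSTF2 had a log2 fold of 0.03 ± 0.87 (SE) with 8 libraries and -0.80 ± 0.15 (SE, adjusted p = 1.05e-06 by edgeR) against DMSO 3 and 4. CSTF3, the subunit that joins the others, measured 0.917, 0.646, 42.8 and 55.8 CPM in DMSO 1 to 4 and 42.9, 40.4, 43.4 and 40.2 CPM with SY-351, and did not pass in either comparison (log2 folds of 0.73 ± 1.21 and -0.22 ± 0.16, SE).

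The subunits of cleavage factor II, PCF11 and CLP1, were lower against DMSO 3 and 4. PCF11, which binds the polymerase and promotes termination (chromosome 11, 83157130 to 83187451), measured 47.4, 51, 69.1 and 92.2 CPM in DMSO 1 to 4 and 34.4, 39.8, 36.5 and 36.3 CPM with SY-351. The groups did not overlap on the TMM scale but did relative to unscaled library totals. The log2 fold was -0.82 ± 0.28 (SE, adjusted p = 0.0819 by edgeR) with 8 libraries and -1.11 ± 0.16 (SE, adjusted p = 6.47e-12 by edgeR) against DMSO 3 and 4. DESeq2 called PCF11 with 8 libraries, at -0.93 (DESeq2 adjusted p = 0.000348). CLP1, an RNA kinase (chromosome 11, 57657761 to 57661865), measured 0.0846, 0.558, 12.7 and 16.7 CPM in DMSO 1 to 4 and 3.55, 2.86, 3.26 and 3.18 CPM with SY-351. In log2 terms the fold was -1.23 ± 1.23 (SE, adjusted p = 0.517 by edgeR) with 8 libraries and -2.18 ± 0.19 (SE, adjusted p = 7.16e-30 by edgeR) against DMSO 3 and 4, from 6 counts in DMSO 1 and 38 in DMSO 2.

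Cleavage factor I, which binds upstream of the cut and takes part in the choice among poly(A) sites, had 2 subunits higher and 1 lower against DMSO 3 and 4. CPSF6 (chromosome 12, 69239568 to 69274358) measured 74.5, 84, 115 and 160 CPM in DMSO 1 to 4 and 219, 227, 225 and 210 CPM with SY-351, above every control. Its log2 fold was 1.03 ± 0.32 (SE, adjusted p = 0.0599 by edgeR) with 8 libraries and 0.70 ± 0.16 (SE, adjusted p = 5.88e-05 by edgeR) against DMSO 3 and 4. With 8 libraries it passed with DESeq2 (0.92, adjusted p = 0.00224). NUDT21, the subunit that reads the RNA, measured 317, 310, 162 and 222 CPM in DMSO 1 to 4 and 278 to 303 CPM with SY-351. The log2 fold stood at 0.19 ± 0.31 (SE) with 8 libraries and 0.61 ± 0.16 (SE, adjusted p = 0.000608 by edgeR) against DMSO 3 and 4, but -0.26 (edgeR adjusted p = 0.00364) against DMSO 1 and 2. CPSF7, which takes the place of CPSF6 in part of the complexes, was lower against DMSO 3 and 4, with a log2 fold of -0.58 ± 0.16 (SE, adjusted p = 0.000579 by edgeR), and had 0.28 ± 0.82 (SE) with 8 libraries.

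Of the poly(A) polymerases, PAPOLA was higher and PAPOLG lower against DMSO 3 and 4. PAPOLA, the main enzyme, measured 144, 163, 165 and 235 CPM in DMSO 1 to 4 and 285 to 297 CPM with SY-351, without overlap. Its log2 fold was 0.72 ± 0.28 (SE, adjusted p = 0.115 by edgeR) with 8 libraries and 0.56 ± 0.16 (SE, adjusted p = 0.00161 by edgeR) against DMSO 3 and 4. PAPOLG, a nuclear paralog (chromosome 2, 60756267 to 60802086), measured 0.762, 0.162, 17.4 and 23.4 CPM in DMSO 1 to 4 and 5.29, 7.22, 7.28 and 7.12 CPM with SY-351. The treated libraries lay between the pairs of controls, with a log2 fold of -0.63 ± 1.19 (SE, adjusted p = 0.738 by edgeR) in 8 libraries and -1.58 ± 0.17 (SE, adjusted p = 6.63e-20 by edgeR) against DMSO 3 and 4.

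Within CPSF, WDR33 and CPSF4 are the subunits that read the poly(A) signal, and FIP1L1 is described with them. WDR33 (chromosome 2, 127701030 to 127811171) measured 160, 152, 82.2 and 109 CPM in DMSO 1 to 4 and 68.2, 71, 72.7 and 62.4 CPM with SY-351. The groups did not overlap, with log2 folds of -0.88 ± 0.29 (SE, adjusted p = 0.0726 by edgeR) in 8 libraries and -0.46 ± 0.16 (SE, adjusted p = 0.00866 by edgeR) against DMSO 3 and 4. For WDR33, against DMSO 3 and 4, the adjusted p was 0.0579 (edgeR) without DMSO 4, with DMSO 3 as the lone control. FIP1L1 (chromosome 4, 53377640 to 53460862) measured 67.4, 84.5, 52.9 and 69.2 CPM in DMSO 1 to 4 and 27.1, 27.9, 28.4 and 56.5 CPM with SY-351. SY-351 replicate 4 reached into the control range. Its log2 fold was -0.97 ± 0.33 (SE, adjusted p = 0.0802 by edgeR) with 8 libraries and -0.78 ± 0.18 (SE, adjusted p = 7.66e-05 by edgeR) against DMSO 3 and 4. For FIP1L1, against DMSO 3 and 4, the adjusted p was 0.221 (edgeR) without DMSO 3 and 0.487 (edgeR) without DMSO 4, each with a lone control. CPSF4 lay at 44.6 to 68.1 CPM in DMSO and 38.1 to 43.7 CPM with SY-351 and passed in neither comparison, with log2 folds of -0.46 ± 0.24 and -0.33 ± 0.16 (SE).

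The nuclease CPSF3 and its partner CPSF2 were lower against DMSO 3 and 4, with log2 folds of -0.55 ± 0.16 and -0.69 ± 0.16 (SE, adjusted p = 0.00136 and 3.91e-05 by edgeR), but had 0.38 ± 1.03 and 0.23 ± 1.00 (SE) with 8 libraries, since DMSO 1 and 2 held only 2.78 to 4.46 CPM of them. The scaffold SYMPK and the regulator RBBP6 did not pass in either comparison, with log2 folds of -0.66 ± 0.46 and 0.35 ± 0.16 for SYMPK and -1.82 ± 0.71 and 0.24 ± 0.16 for RBBP6 (SE). The RBBP6 interval covers 29.5% of the gene. The folds of all members moved with the control kept. With DMSO 3 as the lone control the members' median log2 fold was -0.33, and with DMSO 4 as the lone control it was -0.77. With both controls the median was -0.58, and the TMM factors of DMSO 3 and 4 were 1.42 and 1.057.

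The difference between the pairs of controls was large for these genes. Of the 35 tested genes 14 (40%) were at least 5-fold lower in DMSO 1 and 2 than in DMSO 3 and 4, beside 19.5% of all genes tested, and 8 (22.9%) were at least 2-fold higher, beside 28.3% of all genes. INTS12 was 99.5-fold lower and CSTF2T 78.1-fold lower, and INTS6 8.71-fold and INTS1 8.27-fold higher. Of the rest, 12 were within 2-fold, among them INTS14, SCAF8, PCF11 and CPSF6. All of these ratios are of TMM-scaled levels. Across 33 members with a matched transcript, the log2 ratio of DMSO 1 and 2 to DMSO 3 and 4 (with 0.5 CPM added) correlated with the GC content of the most GC-rich 600 bases of the transcript at r = 0.44 (Pearson) and rho = 0.50 (Spearman). This is a description across genes that share libraries, and genes are not independent replicates. With the GC content of the whole transcript the values were 0.33 and 0.24. The log2 fold of SY-351 over DMSO correlated with the GC content of the richest 600 bases at r = -0.29 and rho = -0.39 with 8 libraries and at r = 0.06 and rho = 0.08 against DMSO 3 and 4.

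Members with few exons had a lower median fold than the others, a difference that was not tested. Against DMSO 3 and 4 the median log2 fold was -1.72 over the 5 tested members with at most 3 exons in the counted transcript and -0.56 over 28 others with a matched transcript. Over all genes tested the medians were -0.22 and 0.03. The 5 are CSTF2T, CLP1, INTS5, RBBP6 and INTS6, and the last pair rest on short transcripts of longer genes, with log2 folds of 0.24 and -0.03. Across the 35 tested genes the log10 length of the counted interval correlated with the log2 fold at r = 0.40 and rho = 0.24 against DMSO 3 and 4, and at r = 0.51 and rho = 0.43 with 8 libraries, also only a description. The counted intervals include introns, and the share of unspliced RNA in these levels was not measured.

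**Figure D3:**
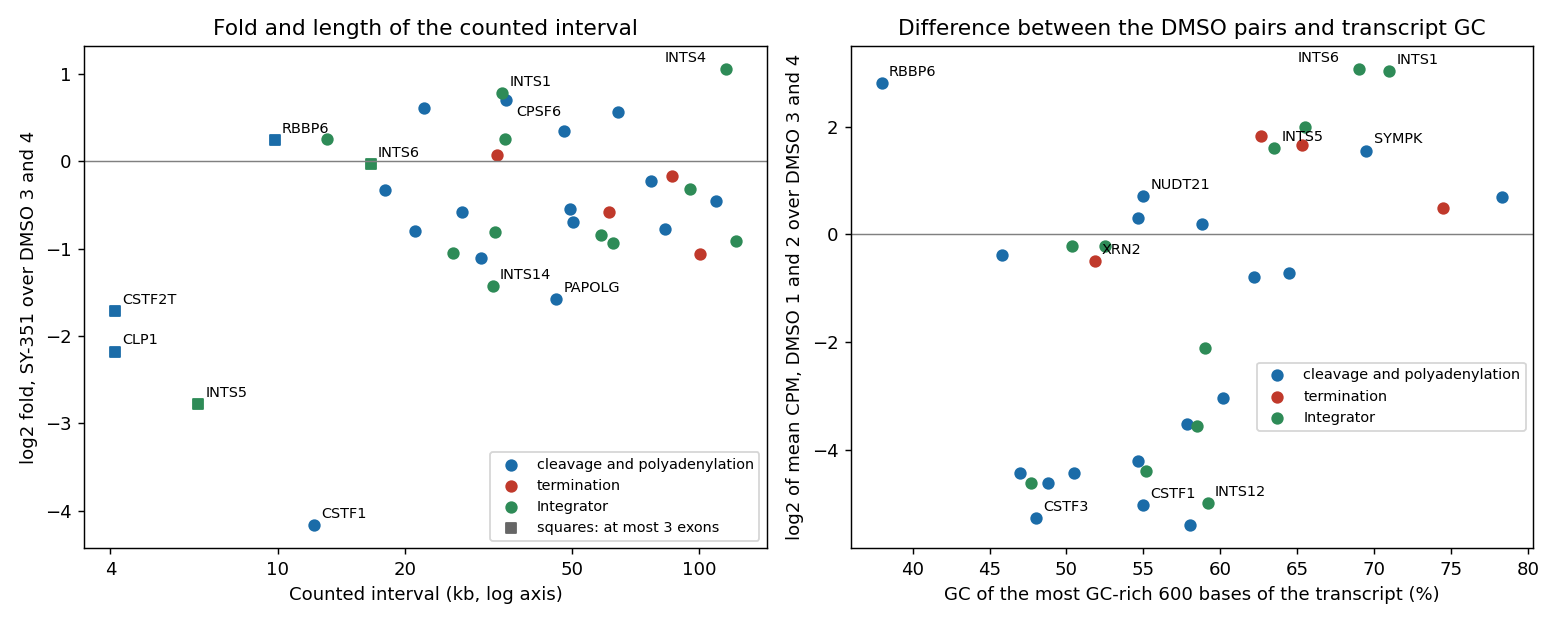
Left, log2 fold of SY-351 over DMSO 3 and 4 against the length of the counted interval (log axis) for the 35 tested genes, with squares for at most 3 exons. Right, log2 ratio of DMSO 1 and 2 to DMSO 3 and 4 against the GC content of the richest 600 bases for 33 genes. CLP1, CSTF2T, INTS5 and CSTF1 lie at short lengths and low folds, and the genes furthest below 0 on the right lie mostly under 60% GC.

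Splicing of these genes was read from the authors' deposited table, which gives an expected inclusion from 0 to 1 for each junction of a splicing variation and the probability that control and SY-351 differ by at least 0.2. The table gives no values per library, and the sources used here do not give which samples entered it. Of the 38 genes 15 are listed, with 28 variations, and 8 genes had a variation past a probability of 0.95, which is 53.3% of the listed members beside 64.2% of all 3700 genes listed. By variation it was 13 of 28 (46.4%), beside 55.7% of 6716. The members' share is thus at or below the background. Only variations whose largest difference was at least 0.117 are in the table, so the 23 genes not listed cannot be called unchanged. By role, 5 of 8 listed cleavage and polyadenylation factors, 1 of 1 termination factor and 2 of 6 Integrator subunits were past 0.95.

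The junctions that gained inclusion were often ones absent from the authors' annotation, which the table marks de novo. Among member entries past 0.95, 9 gained inclusion with SY-351, 6 of them de novo, and 13 lost it, 0 of them de novo. In the authors' deposited table as a whole 43.7% of gained and 4.65% of lost entries were de novo. Entries repeat a junction where it is seen from both of its ends, as in INTS3, and the members' shares were not tested against the table's.

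SCAF4 had the largest shift. In the authors' deposited table an annotated junction that spans 12695 bases fell from an inclusion of 0.997 in control to 0.234 with SY-351 (probability 1), and a de novo junction from the same exon that spans 2698 bases rose from 0 to 0.748 (probability 1). Its RNA level fell as well, as described above. CLP1 had the next largest loss: in the authors' deposited table its annotated junction fell from 0.979 to 0.401 (probability 1), a de novo junction spanning 795 bases rose from 0.001 to 0.383 (probability 1), and another spanning 2905 bases went from 0 to 0.219 without passing (probability 0.463).

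INTS3, the subunit shared with a single-strand DNA binding complex, had no count row but was in the splicing table. By the authors' deposited table an exon of 85 bases, not a multiple of 3, was skipped by a de novo junction at an inclusion of 0.000 in control and 0.403 with SY-351 seen from the upstream exon, and 0.001 and 0.354 seen from the downstream exon (probability 1 for each). INTS2 lost an annotated junction, from 0.954 to 0.615, and gained a de novo one, from 0.046 to 0.385 (probability 0.996 for each, the authors' deposited table). PAPOLG likewise went from 0.961 to 0.582 at an annotated junction and from 0.039 to 0.418 at a de novo one (probability 0.998 for each, the authors' deposited table).

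FIP1L1 differed in kind, because its changes were between annotated junctions and its exons were skipped less with SY-351. By the authors' deposited table an exon of 27 bases was skipped at 0.559 in control and 0.176 with SY-351, seen from upstream, and at 0.596 and 0.198, seen from downstream (probability 1 for each). An exon of 69 bases was skipped at 0.666 and 0.385 from upstream (probability 0.983) and at 0.604 and 0.262 from downstream (probability 0.999). Both lengths are multiples of 3. In WDR33 the annotated junctions on each side of a stretch of 439 bases fell from 0.977 to 0.699 (probability 0.956) and from 0.969 to 0.614 (probability 0.999) in the authors' deposited table, while a de novo junction across it went from 0.018 to 0.232 and from 0.028 to 0.302 without passing. In CSTF3 an annotated junction spanning 33249 bases fell from 0.948 to 0.6 (probability 0.994) in the authors' deposited table.

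The other 7 listed genes, CPSF3, CPSF7, RBBP6, INTS4, INTS6, INTS7 and INTS14, did not reach 0.95 in the authors' deposited table. INTS6 came nearest, at 0.944 for an annotated junction that went from 0.611 to 0.981. Of the 8 genes past 0.95, INTS3 was not tested for expression, SCAF4 fell with 8 libraries, CLP1, PAPOLG, INTS2, WDR33 and FIP1L1 were lower against DMSO 3 and 4, and CSTF3 passed in neither comparison.

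**Figure D4:**
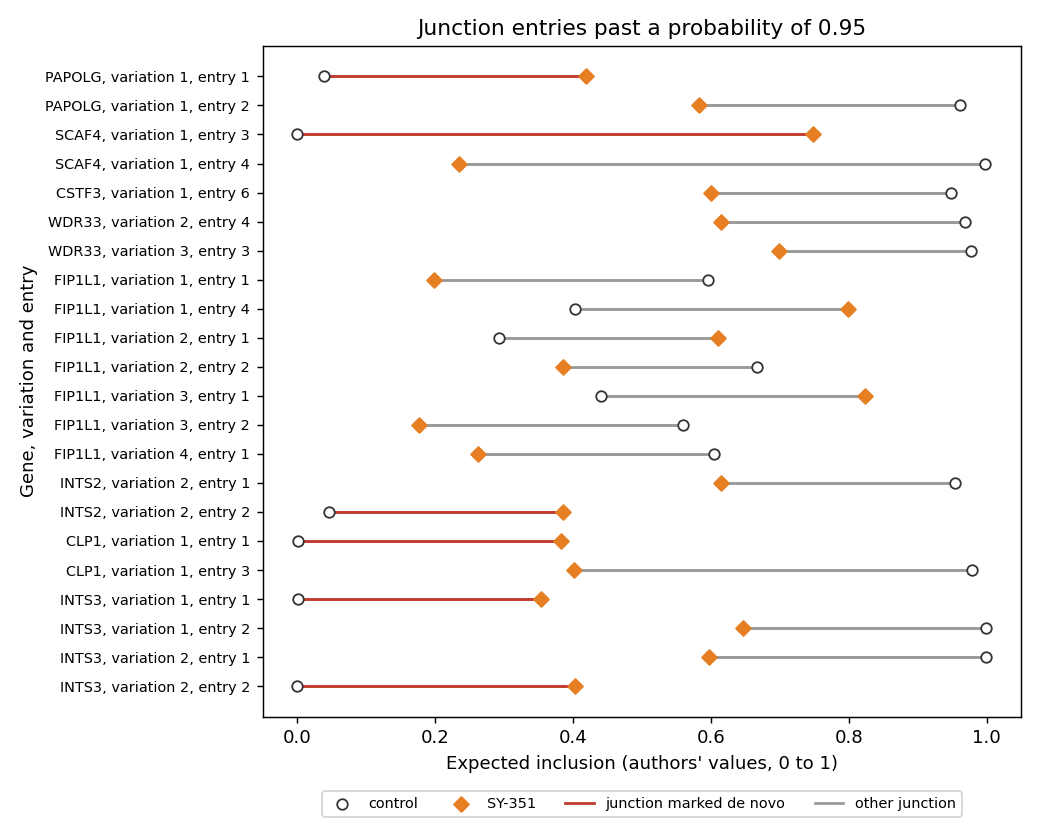
Expected inclusion in the authors' deposited table (0 to 1) of the 22 junction entries past a probability of 0.95 in 8 genes, with open circles for control and diamonds for SY-351 joined by a line, red where the junction is marked de novo. All 6 red lines run from near 0 in control to 0.354 or more with SY-351, and SCAF4 spans the widest range.

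Other factors of the pathway were read from a list of 30 genes, of which 28 were tested. With 8 libraries 8 fell and 0 rose, beside the 13.6% and 2.91% of all genes given above. Against DMSO 3 and 4, 14 were lower (50%) and 7 higher (25%), beside 26.4% and 21.9% of all genes. Of those that fell with 8 libraries, WDR82 and PCIF1 act at the phosphorylated C-terminal domain. They belong to a group of 10 tested phosphatase and C-terminal domain factors, which moved in both directions. Against DMSO 3 and 4, 5 of these 10 were lower (50%) and 4 higher (40%). WDR82 ranged from 137 to 199 CPM in DMSO and from 26.8 to 31.9 CPM with SY-351, with log2 folds of -2.42 ± 0.26 (SE, adjusted p = 0.00291 by edgeR) and -2.52 ± 0.15 (SE, adjusted p = 3.03e-57 by edgeR) in the 2 comparisons, and PCIF1, a cap methyltransferase, had -3.08 ± 0.33 and -2.55 ± 0.15 (SE, adjusted p = 0.00291 and 1.08e-59 by edgeR). Against DMSO 1 and 2 the log2 folds were -2.44 for WDR82 and -3.60 for PCIF1, so both were lower with either pair of controls.

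The factors that form the ends of replication-dependent histone mRNAs were among the lowest. SLBP, which binds the histone stem-loop, measured 299, 370, 88.4 and 114 CPM in DMSO 1 to 4 and 21.5, 21.8, 21.7 and 18.8 CPM with SY-351. In log2 terms it was at -3.38 ± 0.52 (SE, adjusted p = 0.00707 by edgeR) with 8 libraries and -2.25 ± 0.15 (SE, adjusted p = 4.5e-46 by edgeR) against DMSO 3 and 4. LSM10 and LSM11, of the U7 particle, had log2 folds of -3.44 ± 0.52 and -1.48 ± 0.29 (SE, adjusted p = 0.00705 and 0.0134 by edgeR) with 8 libraries and -2.33 and -1.15 against DMSO 3 and 4. The U7 partner ZNF473 had a log2 fold of -2.17 with 8 libraries (edgeR adjusted p = 0.157, and 0.0232 with DESeq2), -3.06 against DMSO 3 and 4 (edgeR adjusted p = 1.59e-68) and 0.72 against DMSO 1 and 2 (edgeR adjusted p = 0.0291). These histone factors were listed together with cap factors. Of the 7 tested genes of that joint list, 5 were lower and 1 higher against DMSO 3 and 4. The higher one was the cap factor SRRT (0.39, edgeR adjusted p = 0.0341), which went to -0.03 under total count scaling.

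Of the Integrator partners, INTS15, BRAT1 and PPP2CA fell with 8 libraries, with log2 folds of -1.89 ± 0.49, -2.84 ± 0.81 and -1.92 ± 0.33 (SE, adjusted p = 0.0339, 0.0479 and 0.00875 by edgeR). INTS15 had -0.75 ± 0.15 (SE, adjusted p = 4.99e-06 by edgeR) against DMSO 3 and 4. BRAT1, which binds the nuclease subunits, had 721 and 741 CPM in DMSO 1 and 2 and 70.7 and 90.4 CPM in DMSO 3 and 4 beside 53.6 to 59.2 CPM with SY-351, and its log2 fold against DMSO 3 and 4 was -0.49 ± 0.16 (SE, adjusted p = 0.00536 by edgeR). PPP2CA, the catalytic subunit of PP2A, had -1.35 ± 0.15 (SE, adjusted p = 2.94e-17 by edgeR) there. The calls of INTS15 and BRAT1 with 8 libraries ended without DMSO 1, DMSO 2 or any single SY-351 library, that of LSM11 without any single SY-351 library, and that of PPP2CA without SY-351 1 or 3. The direction of the cytoplasmic poly(A)-binding proteins turned with the controls. Against DMSO 3 and 4 they were higher, PABPC1 by 1.16 ± 0.18 and PABPC4 by 1.14 ± 0.17 on the log2 scale (SE, adjusted p = 3.69e-10 and 1.21e-10 by edgeR), but had -0.30 ± 0.66 and -0.40 ± 0.60 (SE) with 8 libraries. Against DMSO 1 and 2 they were lower, PABPC1 at -1.15 and PABPC4 at -1.27 (edgeR adjusted p = 2.99e-07 and 1.04e-07).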

How the data were processed

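Poly(A)-enriched RNA was sequenced from 8 libraries of HL60 cells, 4 with DMSO and 4 with 50 nM SY-351 for 5 h. The 16 sample records hold 2 technical repeats of each replicate, which share 1 column of the table and count once. The authors deposited whole-number counts per RefSeq transcript interval, introns included, made with featureCounts and strand setting 1, per the file headers. The genome was GRCh38 and DESeq2 was used, per the submitters' processing notes. The aligner, and whether the kit kept the strand, were not given in the sources used here, so reads of genes overlapping on opposite strands may not be told apart. The authors' deposited splicing table holds other units: inclusion levels expected from 0 to 1, their differences and posterior probabilities, per the file headers. Differences are control minus SY-351 there and have the opposite sign here. Its name says that outliers were left out, and the sources used here do not name those samples. No splicing coordinates are printed, since its build differs from GRCh38.

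Of 18093 rows 17871 were matched by identifier to the RefSeq table and 130 to the GENCODE table, 92 kept their identifier, and 13 were set aside for a shared symbol. The counts were tested with edgeR 4.0.16 (R 4.3.3): TMM scaling, filterByExpr, robust quasi-likelihood fit, and Benjamini-Hochberg adjustment over all genes tested, with a threshold of 0.05. CPM are TMM-scaled. DESeq2 1.42.0 and limma 3.58.1 (voom), other scalings and filters, other controls, the replicate number as a block and the omission of each library were alternatives. Values in every library are given for members called in the 8 libraries, members called against DMSO 3 and 4 with a log2 fold of at least 1 in size in either comparison, and members with splicing past a probability of 0.95, with other members added for their role. For 1 of the related factors, counted in its list, no value of its own is reported here. The members, lists and rules were chosen with earlier results of these data known.

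On simulated data with the spread of all 8 libraries (15304 genes), edgeR called 0 of 98 genes with a 2-fold change and 0 of 99 with a 4-fold change, and without DMSO 1 and 2 (15663 genes) 55 of 98 and 87 of 98 were called, with 6 of 15467 unchanged genes called. The simulated libraries varied independently, unlike the 2 pairs of DMSO libraries. The 0 calls therefore do not measure what the 8-library test can find in the real counts, where it called 2100 genes lower and 450 higher.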

Additional observations from a re-analysis of the deposited data

Results flagged for a closer look

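Among 70 groups of 4 libraries checked, 6 held a library far from the other 3. This was judged by its gap to the nearest library relative to the group's range (Dixon's test). Chance gives about 1 such group in 20 for 4 independent, normally distributed values. The DMSO libraries form 2 pairs, so that rate need not hold for their groups. Among the SY-351 libraries the high ones were CPSF4 in replicate 1 (43.7 CPM), FIP1L1 in replicate 4 (56.5 CPM), SSU72 in replicate 1 (139 CPM) and INTS4 in replicate 4 (134 CPM), and the low one was PAPOLG in replicate 1 (5.29 CPM). Among the DMSO libraries INTS14 was high in replicate 4 on the TMM scale (45.3 CPM). Its unscaled counts were 6394 there and 6646 in replicate 3, whose TMM factors were 1.208 and 1.606, so this flag depends on the scaling. SY-351 replicate 4 has the fewest counts, 43266151, and its part in the FIP1L1 and INTS4 values was not tested.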

How the results depend on the processing

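The counts of calls depended most on the controls. Without DMSO 1 and 2 there were 20 members lower and 4 higher (cleavage factors 11 lower, Integrator 7 lower), 4172 and 3466 of all genes, and 14 and 7 related factors. With DMSO 1 and 2 as the only controls there were 16 and 17 (7 cleavage, 6 Integrator lower), 5996 and 6372 of all genes, 17 and 9 related factors, and a members' median log2 fold of 0.16. With DESeq2 12 members were lower and 2 higher (6 cleavage, 4 Integrator lower), with 3806 and 1377 of all genes. DESeq2 size factors, no filter and limma-voom left 1 termination factor lower; limma-voom gave 1 member higher and a median of 0.11. A filter of 1 CPM in 4 libraries gave 2 members and 1 related factor higher. Total count scaling gave 1 cleavage factor lower and 215 of all genes higher. Libraries with the same number had correlations of deviations from their group mean of 0.001, -0.033, 0.007 and -0.134. The split between the pairs of DMSO libraries is part of these deviations, so they cannot settle whether the numbers pair the replicates. With the replicate block 0 members, termination factors, Integrator subunits, related factors and genes were lower and 0 genes higher by edgeR. At an unadjusted p below 0.05 there were 3649 genes, and the members' median was 0.22. The cause of these shifts was not tested.

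Leaving out 1 library gave 1 to 10 members lower and 0 to 2 higher, 0 to 3 cleavage factors, 0 to 3 termination factors and 1 to 4 Integrator subunits lower, 473 to 3438 genes lower and 61 to 1885 higher, 4 to 9 related factors lower and 0 higher, and a median of -0.66 to 0.04. Against DMSO 3 and 4, where leaving out a control leaves 1 and the spread comes from the SY-351 libraries, it gave 18 to 23 members lower and 4 to 9 higher, 9 to 12 cleavage, 2 to 3 termination and 7 to 8 Integrator genes lower, 14 to 16 related factors lower and 4 to 11 higher, 3771 to 5400 genes lower and 2868 to 4832 higher, and a median of -0.77 to -0.33. Total count scaling there, chosen like these omissions after seeing the data, gave 4 termination and 11 Integrator genes lower, 4 related factors higher, 6848 genes lower, 2065 higher and a median of -1.0.

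Signs turned for single genes. Without DMSO 1 and 2 the log2 folds were CPSF2 -0.69, CPSF3 -0.55, CPSF7 -0.58, CSTF2 -0.80, INTS1 0.78, INTS2 -0.93, INTS13 -0.81, PPP1CA 0.47, TOX4 -0.55, SRRT 0.39, PABPC1 1.16 and PABPC4 1.14. With DMSO 1 and 2 as the only controls they were NUDT21 -0.26, CSTF1 1.52, CSTF2T 4.40, CLP1 3.18, PAPOLG 3.71, INTS9 1.13, INTS12 5.40, RPRD1A -0.65, ZNF473 0.72, NABP2 -0.24 and INIP 5.53. With total count scaling against DMSO 3 and 4 they were SSU72 -0.34, INTS10 -0.18, INTS11 -0.17, RPAP2 -0.04, SRRT -0.03, TENT2 -0.40 and PPP2R1A -0.32. The splicing count was 9 genes at a probability of 0.90 and 8 at 0.99. Below 3 counts, worth 0.0241 to 0.0693 CPM before TMM scaling, levels could not be told from 0.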
